A study of Homo sapiens with 12 samples.

Results

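The 3 human lamin genes (LMNA, LMNB1 and LMNB2) and the 5 genes for the enzymes that process the prelamin tail (FNTA, FNTB, RCE1, ZMPSTE24 and ICMT) were taken by their Ensembl identifiers from the 60708 genes of the deposited tables. All 8 were found, and all 8 were among the 15388 genes kept by a filter on low counts. The cells were hTERT RPE-1, a telomerase-immortalised line from human retinal pigment epithelium. LmnB1_16 and LmnB1_6 were clonal stable lines that overexpressed a fusion of the red fluorescent protein mCherry with lamin B1, and mCherry_4 and mCherry_3 were clonal stable lines that overexpressed mCherry alone. Each clone gave 3 libraries described as biological replicates, and all 12 cultures had 0.05 ug/mL doxycycline for 24 hours and hygromycin B in the medium. With 2 clones per construct, the 3 libraries of 1 clone do not stand for separate samples of its construct.

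Lamins are intermediate filament proteins that form a meshwork under the inner nuclear membrane. LMNA gives lamin A and lamin C by alternative splicing, while LMNB1 and LMNB2 each encode a B-type lamin. Prelamin A and the B-type lamins end in a CaaX motif, a cysteine followed by a pair of mostly aliphatic residues and a last residue. Farnesyltransferase (FNTA and FNTB) attaches a farnesyl lipid to that cysteine, a protease (RCE1 or ZMPSTE24) removes the last residues, and ICMT methylates the new end. ZMPSTE24 then cuts prelamin A once more, upstream, which removes the lipid, whereas lamin B1 and lamin B2 keep it.

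The coding ends of the B-type lamin transcripts show the substrate of these enzymes in the gene that the construct carries and in the other B-type lamin gene. The sequences below are the end of the coding sequence in GENCODE 29 on GRCh38, 5′ to 3′ on the transcript strand, with the 4 CaaX codons in capitals and the stop codon last.
Lamin B1: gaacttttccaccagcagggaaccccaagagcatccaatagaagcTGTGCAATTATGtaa
Lamin B2: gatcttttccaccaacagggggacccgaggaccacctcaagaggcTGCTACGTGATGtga
The last 5 codons lie at chr5:126836250-126836264 (plus strand) for lamin B1 and chr19:2430911-2430925 (minus strand) for lamin B2. The deposited tables are per gene, so lamin A and lamin C were not measured apart, nor were LMNB1 transcripts from the construct and from the cells' own gene.

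Total estimated counts were 20.6 to 29.5 M per library. Levels are given as CPM (counts over the TMM-scaled library size, in M), and between genes they are compared only as deposited TPM, which are per length. Libraries of the same clone differed by more than sampling noise (chi-square per degree of freedom at least 3.86). Retinal pigment epithelium markers were in part absent: RPE65 and TYR had 0 counts in every library, and RLBP1 and TYRP1 had at most 9 and 3. MITF averaged 0.059 CPM and OTX2 0 in LmnB1_6, against 31.3 and 15.5 in LmnB1_16, 49.0 and 11.1 in mCherry_4 and 58.6 and 12.6 in mCherry_3. PAX6 was instead highest in LmnB1_6, at 72.4 CPM against 38.6 in LmnB1_16, 39.1 in mCherry_4 and 35.0 in mCherry_3, and so was SERPINF1, at 1.43 CPM against 0.20 to 0.59 in the other clones. The remaining 4 markers of the list averaged 7.60 to 12.9 CPM (RDH5), 0.82 to 4.54 (PMEL), 0.17 to 3.60 (LRAT) and 0.37 to 0.60 (BEST1). Of the epithelial markers, KRT8 and KRT18 were at 291 to 613 CPM on average, while CDH1 and EPCAM had at most 2 counts and 1 count. The leukocyte markers PTPRC, CD3E and LYZ had at most 9 counts in a library. Of 4 endothelial markers TIE1 passed the filter, at 3.90 to 15.0 CPM, and of 3 muscle markers DES did, at most at 56 counts.

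LMNB1 (ENSG00000113368.12, chromosome 5, 126776623 to 126837020, plus strand), the gene that the construct carries, checks the construct named in the labels. It stood at 3330, 3666 and 3126 CPM in LmnB1_16, 3985, 4135 and 3808 in LmnB1_6, 160, 169 and 155 in mCherry_4 and 77.2, 91.2 and 86.6 in mCherry_3. Every LmnB1 library lay above every mCherry library, which holds for 8.66% of all tested genes in either direction and 3.80% in this one, and no 2 clones overlapped. By TPM, LMNB1 ranked from 11 to 17 among all genes in the 6 LmnB1 libraries, and from 1627 to 3648 in the 6 mCherry libraries. It took 0.364% ± 0.0378 of all counts in LmnB1 libraries and 0.0122% ± 0.0036 in mCherry libraries (SD, n = 6 each). LMNB1 was 29.8-fold higher with the LmnB1 construct (log2 fold change 4.90, SE 0.23, adjusted p = 1.25e-07, edgeR's quasi-likelihood test). The construct in each label therefore fits the LMNB1 level. Which clone of a construct a library came from is not checked by this.

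Clones of the same construct also differed in LMNB1. LMNB1 was lower in LmnB1_16 than in LmnB1_6 (log2 fold change -0.24, SE 0.07, adjusted p = 0.0117, edgeR with clones as groups). Of the clones whose construct holds no lamin, mCherry_4 had more LMNB1 than mCherry_3 (0.93, SE 0.07, adjusted p = 4.79e-08). The LMNB1 log2 fold change was thus 5.55 and 5.31 for LmnB1_6 and LmnB1_16 over mCherry_3, and 4.62 and 4.39 over mCherry_4. As these are bulk samples, fewer cells that express a gene and less RNA per cell cannot be told apart. Mitotic genes differed between the mCherry clones as well: all 10 of a list that includes MKI67, TOP2A and CCNB1 were called higher in mCherry_4 (median log2 fold change 1.05), where 19.9% of all genes were. Their part in the LMNB1 difference was not tested.

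**Figure D1:**
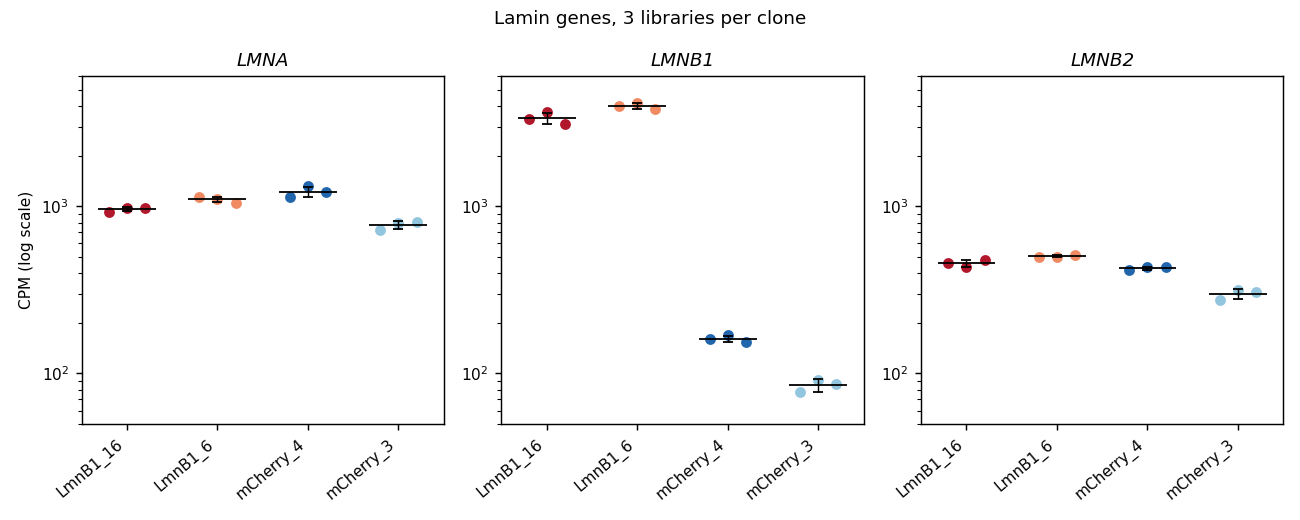
CPM of LMNA, LMNB1 and LMNB2 on a log scale by clone, with 1 point per library, a horizontal line at the mean and bars of 1 SD (n = 3). LMNB1 lies at 3126 to 4135 CPM in the LmnB1 libraries and at 77.2 to 169 in the mCherry libraries, and mCherry_3 has the lowest mean of all 3 genes.

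The deposited effective length of LMNB1, the length in bases that the quantification divides by, was shorter in LmnB1 clones. It was 1035, 1012 and 1022 bases in LmnB1_16, 989, 998 and 1024 in LmnB1_6, 2466, 2441 and 2472 in mCherry_4 and 2624, 2564 and 2615 in mCherry_3. The means were 1013 ± 17.1 bases in LmnB1 libraries and 2530 ± 80.6 in mCherry libraries (SD, n = 6 each), a ratio of 0.400. The groups did not overlap, which in this direction holds for 0.169% of tested genes and in either for 0.364%, and an exact two-sided permutation test over libraries gave p = 0.0021645, the smallest that 6 against 6 allows. That test takes libraries of a clone as separate samples, and with 2 clones per construct the p overstates the replication. LMNB1 had the 7th lowest ratio of the 15388 genes, whose median log2 ratio was -0.00 with 95% of genes between -0.26 and 0.27, against -1.32 for LMNB1.

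A gene's effective length in such tables is an average over its transcripts, weighted by their estimated abundance. The deposited length of LMNB1, before the correction to effective length, was 1266 to 1294 bases in LmnB1 libraries and 2696 to 2896 in mCherry libraries. GENCODE 29 lists a full-length lamin B1 transcript of 2878 bases with a coding sequence of 1761 bases, and 7 others of 557 to 3475 bases, 2 of them listed as protein coding, of 1572 and 738 bases. The annotated length of the full-length transcript lies within the range of the mCherry libraries, and the coding sequence alone is longer than the deposited length in any LmnB1 library. The transcripts to which reads were assigned and the sequence that the construct transcribes were not stated in the sources used here.

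The shorter length enlarges the LMNB1 difference per length. LMNB1 averaged 5216 ± 583 TPM in LmnB1 libraries and 71.6 ± 23.5 in mCherry libraries (SD, n = 6 each). With effective length as an offset in edgeR, the log2 fold change was 6.21 (SE 0.26, adjusted p = 2.08e-08), against 4.90 from counts alone. TPM and the offset both rest on the deposited effective length, and whether it is that of the construct's transcript was not tested.

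**Figure D2:**
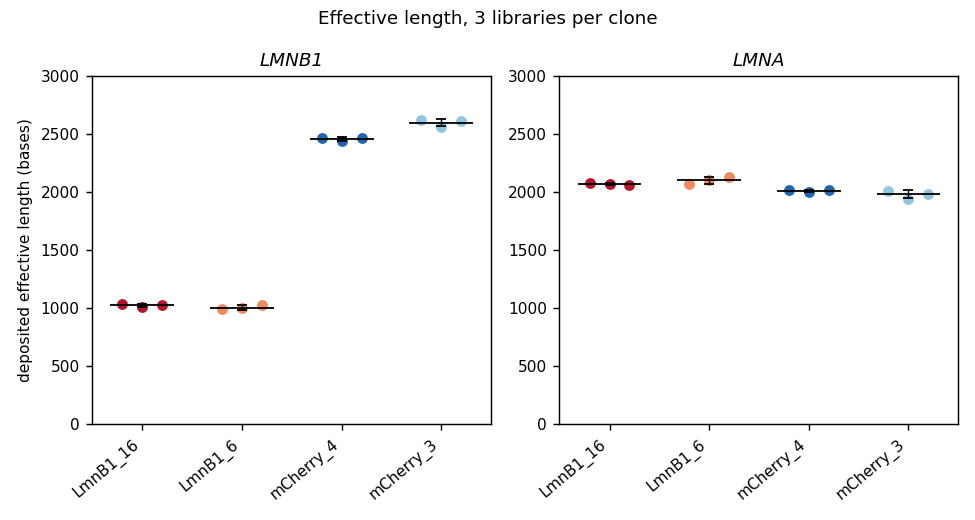
Deposited effective length in bases of LMNB1 and LMNA by clone, with 1 point per library, the mean as a line and bars of 1 SD (n = 3). LMNB1 averages 1013 bases in LmnB1 libraries and 2530 in mCherry libraries, while LMNA stays between 1944 and 2133 bases.

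LMNA went the other way by far less, with a longer effective length in every LmnB1 library than in any mCherry library. Its effective length was 2065 to 2083 bases in LmnB1_16, 2074 to 2133 in LmnB1_6, 2001 to 2020 in mCherry_4 and 1944 to 2011 in mCherry_3. The means were 2089 ± 25.5 bases in LmnB1 libraries and 1997 ± 28.4 in mCherry libraries (SD, n = 6 each), and 0.195% of genes were separated in this direction. The annotated lamin A transcript (3190 bases) is longer than that of lamin C (2461 bases), and their shares were not tested. The effective lengths of the other 6 genes overlapped between the constructs, with ratios of 0.968 to 1.01.

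LMNA (ENSG00000160789.24, chromosome 1, 156082573 to 156140089, plus strand) was not called between the constructs. It stood at 932, 980 and 984 CPM in LmnB1_16, 1139, 1110 and 1055 in LmnB1_6, 1145, 1322 and 1214 in mCherry_4 and 723, 799 and 803 in mCherry_3. Both LmnB1 clones lay between the mCherry clones, and the ranges of neighbouring clones in this order did not overlap. Between the constructs the log2 fold change was 0.05 (SE 0.15, 95% interval -0.24 to 0.33, adjusted p = 0.850, edgeR). LMNA was higher than in mCherry_3 in LmnB1_6 (0.51, adjusted p = 3.2e-06) and LmnB1_16 (0.32, adjusted p = 5.12e-04). Against mCherry_4 it was lower in LmnB1_16 (-0.35, adjusted p = 8.22e-04), and at -0.16 in LmnB1_6 it was not called (adjusted p = 0.0563). Without mCherry_4 the construct difference was 0.41 (adjusted p = 0.00307), and without mCherry_3 it was -0.24 (adjusted p = 0.114), so the sign turned with the mCherry clone. The mCherry clones differed more, by 0.66 for mCherry_4 over mCherry_3 (SE 0.06, adjusted p = 4.3e-07), than either LmnB1 clone did from either of them.

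LMNB2 (ENSG00000176619.13, chromosome 19, 2427638 to 2456996, minus strand) was higher with the LmnB1 construct, mostly against 1 control clone. It stood at 460, 431 and 478 CPM in LmnB1_16, 499, 500.4 and 510 in LmnB1_6, 417, 432 and 434 in mCherry_4 and 276, 315 and 309 in mCherry_3. LmnB1_16 and mCherry_4 overlapped, and mCherry_3 lay below all others. The log2 fold change between the constructs was 0.40 (SE 0.11, adjusted p = 0.0331, edgeR), and without mCherry_3 it was 0.17 (adjusted p = 0.159). The call was also lost under the replicate block (adjusted p = 0.0636), with clone as a random effect in limma (0.154) and with counts summed per clone (0.778). Leaving out any 1 library of LmnB1_6 or mCherry_3 also ended the call, at adjusted p of 0.0590 to 0.0748. Over mCherry_3, LMNB2 was higher by 0.75 in LmnB1_6 and 0.61 in LmnB1_16, and over mCherry_4 by 0.24 in LmnB1_6 (adjusted p = 0.00429), while 0.09 in LmnB1_16 did not pass (adjusted p = 0.329). Between mCherry clones the difference was 0.51 (adjusted p = 4.28e-06). By TPM the constructs did not overlap, at 155 to 179 in LmnB1 libraries and 101 to 143 in mCherry libraries, as for 6.08% of all genes, 2.85% in this direction. Exons of LMNB2 overlap those of TIMM13 on the same strand, a gene with 1246 to 2584 counts per library, so reads of the overlap are uncertain.

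The ratio of LMNA to LMNB2 separated the constructs although LMNA did not. It was 3.998 to 4.72 by TPM in LmnB1 libraries and 5.45 to 6.56 in mCherry libraries, with means of 4.29 ± 0.29 in LmnB1 libraries and 5.82 ± 0.41 in mCherry libraries (SD, n = 6 each). By clone it averaged 4.30 in LmnB1_16, 4.28 in LmnB1_6, 6.13 in mCherry_4 and 5.52 in mCherry_3. By counts the ratio was 2.15 in LmnB1 libraries and 2.73 in mCherry libraries, again without overlap. It was chosen after its values were seen, so it carries no test. Count ratios of LMNA to each of 14614 genes were without overlap, in either direction, for 4.36% of genes, and those of LMNB2 for 17.4%.

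Per length, the makeup of lamin transcripts turned over. LMNB1 was 85.1% ± 1.27 of the summed lamin TPM in LmnB1_16, 86.0% ± 0.31 in LmnB1_6, 8.48% ± 0.37 in mCherry_4 and 6.60% ± 0.18 in mCherry_3 (SD, n = 3 each). LMNA was 12.1% in LmnB1_16, 11.4% in LmnB1_6, 78.7% in mCherry_4 and 79.1% in mCherry_3. LMNB2 was 2.82% in LmnB1_16, 2.66% in LmnB1_6, 12.9% in mCherry_4 and 14.3% in mCherry_3. LMNB1 was thus the main lamin transcript per length in the LmnB1 clones, and LMNA in the mCherry clones. The summed lamin TPM was 5705 in LmnB1_16, 6479 in LmnB1_6, 1093 in mCherry_4 and 766 in mCherry_3. LMNA and LMNB2 together held 843 TPM in LmnB1_16, 908 in LmnB1_6, 1000.4 in mCherry_4 and 716 in mCherry_3, so their sum in LmnB1 clones lay between those of the mCherry clones. By estimated counts, which are not divided by length, the LMNB1 share was 70.8% in LmnB1 libraries and 8.11% in mCherry libraries. The TPM shares rest on the deposited effective length. In LmnB1 libraries the deposited LMNB1 length was below the lamin B1 coding sequence of 1761 bases. How far this raised the TPM share was not tested.

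**Figure D3:**
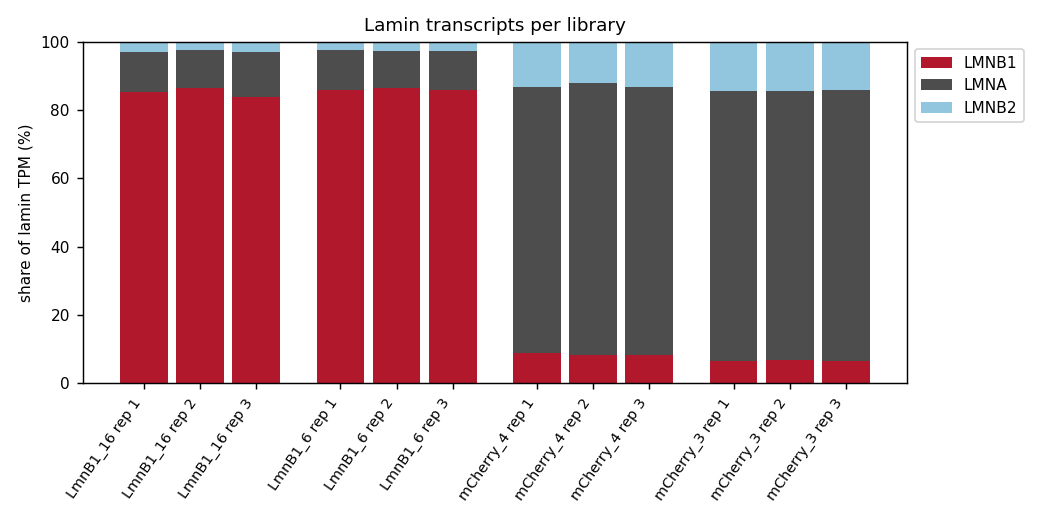
Share of the summed lamin TPM in % held by LMNB1, LMNA and LMNB2, with 1 stacked bar per library. LMNB1 fills 83.8% to 86.4% of the bar in LmnB1 libraries and 6.48% to 8.90% in mCherry libraries, where LMNA fills 77.8% to 79.5%.

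None of the 5 genes of the processing enzymes was called between the constructs, where 17.8% of all genes were (8.58% higher and 9.25% lower). Of the 5, FNTB alone had an unadjusted p under 0.05, as did 5276 of all 15388 genes. FNTA (ENSG00000168522.13, chromosome 8), the alpha subunit that farnesyltransferase shares with a related prenyltransferase, stood at 42.0, 48.8 and 45.5 CPM in LmnB1_16, 38.6, 42.6 and 45.7 in LmnB1_6, 44.1, 48.2 and 43.2 in mCherry_4 and 52.4, 50.9 and 51.4 in mCherry_3. It was highest in mCherry_3, and the other 3 clones overlapped. The log2 fold change between the constructs was -0.14 (SE 0.07, adjusted p = 0.180, edgeR), and of the 4 contrasts between an LmnB1 and an mCherry clone, LmnB1_6 over mCherry_3 was called (-0.28, adjusted p = 0.00447).

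FNTB (ENSG00000257365.8, chromosome 14, 64986720 to 65062652, plus strand), the beta subunit that binds the CaaX substrate, had its lowest level in the clone where FNTA was highest. It stood at 28.1, 29.8 and 29.3 CPM in LmnB1_16, 31.5, 33.7 and 29.6 in LmnB1_6, 26.5, 28.3 and 29.7 in mCherry_4 and 22.3, 20.7 and 19.3 in mCherry_3. All mCherry_3 values lay below those of the other 3 clones, which overlapped. Between the constructs the log2 fold change was 0.31 (SE 0.11, adjusted p = 0.0582, edgeR), and DESeq2 called it (adjusted p = 0.0278). It was also called in edgeR without the second library of mCherry_4 (adjusted p = 0.0394) or the third (adjusted p = 0.0296). Over mCherry_3 it was higher by 0.60 in LmnB1_6, 0.49 in LmnB1_16 and 0.44 in mCherry_4, and over mCherry_4 it was at 0.17 and 0.05 in LmnB1_6 and LmnB1_16, neither of which was called. The ratio of FNTA to FNTB by TPM was therefore 2.42 in LmnB1_16, 2.29 in LmnB1_6, 2.60 in mCherry_4 and 3.96 in mCherry_3. The FNTB locus shares exons with the readthrough gene CHURC1-FNTB (0 to 22.2 counts per library), so its counts are uncertain.

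RCE1 (ENSG00000173653.8, chromosome 11, 66842835 to 66846546, plus strand), the CaaX endoprotease of the endoplasmic reticulum, was the least counted of the 8. It stood at 16.9, 13.4 and 20.4 CPM in LmnB1_16, 18.5, 18.5 and 19.8 in LmnB1_6, 18.3, 15.9 and 17.4 in mCherry_4 and 16.9, 18.0 and 19.7 in mCherry_3. LmnB1_16 and mCherry_3 overlapped every other clone, LmnB1_6 and mCherry_4 lay just apart from each other, and no contrast called it. Between the constructs the log2 fold change was 0.02, with a 95% interval of -0.17 to 0.21. Exons of C11orf80 overlap RCE1 on the same strand, with 259 to 455 counts of C11orf80 beside 272 to 591 of RCE1, so the split is uncertain.

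ZMPSTE24 (ENSG00000084073.10, chromosome 1, 40258107 to 40294184, plus strand), the metalloprotease that makes the final cut of prelamin A, had its largest difference in the 6 contrasts at a log2 fold change of -0.24. It stood at 96.6, 115 and 97.8 CPM in LmnB1_16, 92.7, 95.9 and 93.9 in LmnB1_6, 103, 101 and 102 in mCherry_4 and 119, 103 and 113 in mCherry_3. LmnB1_6 was lowest, and LmnB1_16 overlapped both mCherry clones. The log2 fold change between the constructs was -0.12 (SE 0.06, adjusted p = 0.214, edgeR), and LmnB1_6 over mCherry_3 was called (-0.24, adjusted p = 0.0064). Without the second LmnB1_16 library, which held the highest LmnB1 value, the construct difference was called as well (-0.16, adjusted p = 0.0486).

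ICMT (ENSG00000116237.16, chromosome 1, 6221193 to 6235972, minus strand), the methyltransferase that caps the trimmed cysteine, was lowest in LmnB1_6. It stood at 207, 239 and 227 CPM in LmnB1_16, 195, 191 and 184 in LmnB1_6, 239, 263 and 240.3 in mCherry_4 and 218, 216 and 216 in mCherry_3. LmnB1_6 overlapped no other clone, and LmnB1_16 overlapped both mCherry clones. The log2 fold change between the constructs was -0.16 (SE 0.08, adjusted p = 0.148, edgeR). LmnB1_6 was lower than mCherry_4 (-0.38, adjusted p = 8.03e-05) and mCherry_3 (-0.19, adjusted p = 0.0127), while LmnB1_16 was at -0.14 and 0.05 against them, neither called. LmnB1_16 was higher than LmnB1_6 by 0.24 (adjusted p = 0.00446). RNF207 overlaps ICMT on the opposite strand with 35 to 230 counts, and the use of strand in counting was not stated in the sources used here.

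**Figure D4:**
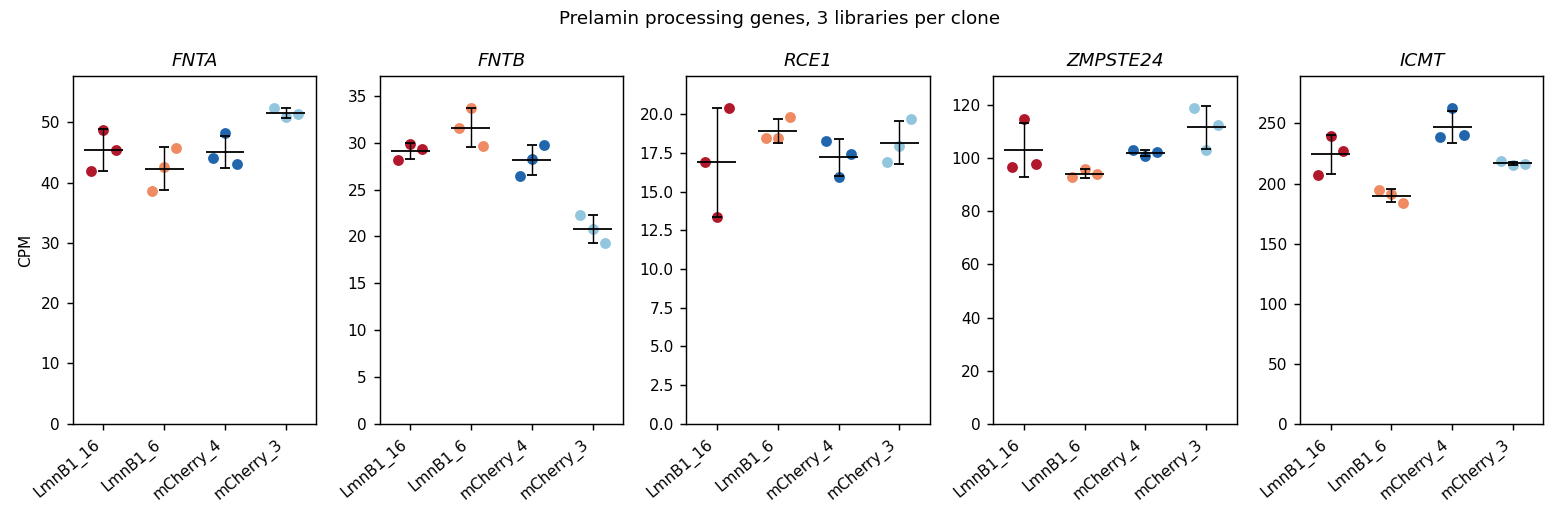
CPM of the 5 processing genes by clone, with 1 point per library, the mean as a line and bars of 1 SD (n = 3), each axis from 0. FNTA is highest and FNTB lowest in mCherry_3, RCE1 averages 16.9 to 18.9 CPM in every clone, and ICMT is lowest in LmnB1_6.

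Over the 8 genes, 2 were called between the constructs (LMNB1 and LMNB2, both higher), beside 17.8% of all genes (8.58% higher and 9.25% lower). An unadjusted p under 0.05 was found for 3 of the 8 and for 5276 of all 15388 genes. Without LMNB1, the gene that the construct carries, 1 of 7 was called and 2 had an unadjusted p under 0.05. Among the 8, the called genes were 5 without mCherry_4 (LMNA, FNTA and FNTB added) and 3 without LmnB1_16 (ICMT added). Without LmnB1_6 or without mCherry_3 the count was 1, LMNB1. With counts summed per clone edgeR called 0, and LMNB1 alone had an unadjusted p under 0.05. The share of all genes called under each of these settings is not given here, so these counts do not single out the 8. LmnB1_6 over mCherry_3 called 7 of 8, with 4 higher and 3 lower, beside 52.8% of all genes (26.0% higher and 26.8% lower). LmnB1_6 over mCherry_4 called 3, with 2 higher and 1 lower (37.2% of all genes, 17.1% higher and 20.1% lower). LmnB1_16 over mCherry_3 called 4, all higher (44.4% of all genes, 22.5% higher and 22.0% lower). LmnB1_16 over mCherry_4 called 2, with 1 higher and 1 lower (15.7% of all genes, 6.67% higher and 9.00% lower). LMNB1, which the construct carries, is among the higher genes in each of these counts. It was the only 1 of the 8 that all 4 of these contrasts called in 1 direction. Of all genes 4.68% met that in either direction, and 1.77% upward. The 4 contrasts share clones, so they are not independent of each other. Within a construct, mCherry_4 over mCherry_3 called 5 of 8, all higher (37.4% of all genes, 19.9% higher and 17.4% lower). LmnB1_16 over LmnB1_6 called 3, with 1 higher and 2 lower (34.4% of all genes, 17.8% higher and 16.6% lower). With LMNB1 left aside, the median log2 fold change of the other 7 genes between the constructs was 0.02, and that of all tested genes was 0.00.

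**Figure D5:**
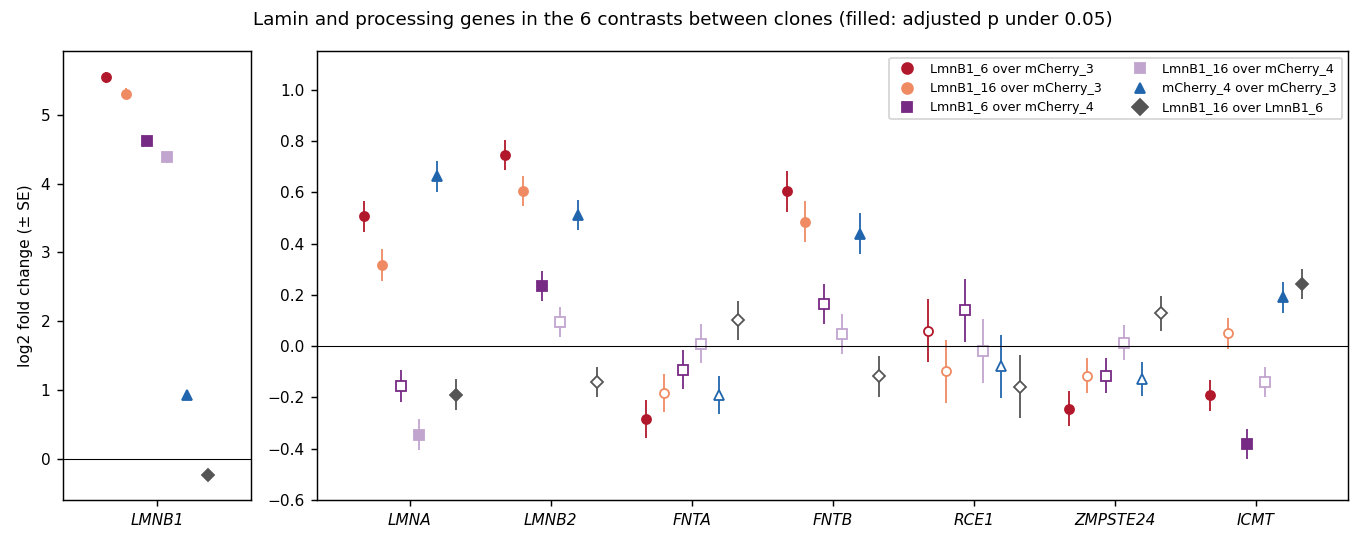
Log2 fold change with bars of 1 SE for the 8 genes in the 6 contrasts between clones, LMNB1 at left on its own scale, filled where the adjusted p was under 0.05. LMNA and LMNB2 are higher in every contrast over mCherry_3 (circles and triangles), and LMNA lies below 0 in both contrasts over mCherry_4 (squares), where only LmnB1_16 is called.

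The rest of the pathway was described from lists. Between the constructs, 5276 of all 15388 tested genes had an unadjusted p under 0.05 in edgeR. The share of all genes that DESeq2 called is not given here. None of the 8 genes of isoprenoid supply, from HMGCS1 to FDPS and GGPS1, was called between the constructs by edgeR or DESeq2. Among them 1 had an unadjusted p under 0.05 in edgeR, and their median log2 fold change was 0.02. FDPS, which makes farnesyl diphosphate, averaged 129 CPM in LmnB1_16, 141 in LmnB1_6, 133 in mCherry_4 and 111 in mCherry_3. Of 9 other prenylation and CaaX genes 1 was called higher and 2 lower between the constructs, by edgeR and beside 8.58% and 9.25% of all genes, and DESeq2 called 3. NARF, whose product binds the prelamin A tail, was higher (0.46, SE 0.11, adjusted p = 0.0191, edgeR) at 38.9 CPM in LmnB1_16, 52.8 in LmnB1_6, 36.1 in mCherry_4 and 30.8 in mCherry_3. CHM, a Rab escort protein, was lower (-0.31, adjusted p = 0.00944), as was PCYOX1, which breaks down prenylcysteine (-0.26, adjusted p = 0.0471). In LmnB1_16 over mCherry_4 none of these 3 was called (adjusted p = 0.397 for NARF, 0.0745 for CHM and 0.752 for PCYOX1). Between the mCherry clones, mCherry_4 over mCherry_3, edgeR called PCYOX1 (-0.26, adjusted p = 0.0106) and NARF (0.23, adjusted p = 0.0265). CHM was not called there (-0.08, adjusted p = 0.496).

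Among 12 farnesylated proteins other than lamins, 1 was called higher and 2 lower between the constructs by edgeR, where 17.8% of all genes were called, and DESeq2 called 4. NAP1L1, a histone chaperone, was higher (0.33, SE 0.08, adjusted p = 0.0147, edgeR). PEX19, which imports peroxisomal membrane proteins, was lower (-0.31, adjusted p = 0.0156), and so was the small GTPase RHOB (-0.43, adjusted p = 0.0314). RHOB was at -0.06 in LmnB1_6 over mCherry_4 (adjusted p = 0.612), and at -0.47 in mCherry_4 over mCherry_3 (adjusted p = 2.13e-04) the mCherry clones differed more than the constructs. In LmnB1_16 over mCherry_4, NAP1L1 (adjusted p = 0.0876) and PEX19 (adjusted p = 0.133) were not called. The mCherry clones also differed in both by edgeR. NAP1L1 was at 0.31 (adjusted p = 1.35e-04) and PEX19 at -0.29 (adjusted p = 0.00173) in mCherry_4 over mCherry_3. CENPF, a farnesylated kinetochore protein, averaged 445 CPM in LmnB1_16, 451 in LmnB1_6, 388 in mCherry_4 and 189 in mCherry_3.

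Of 10 lamin-binding proteins of the nuclear membrane and chromatin, TMPO was called higher and SUN1 lower by edgeR, a share near the 17.8% of all genes, and DESeq2 called 3. TMPO, which encodes lamina-associated polypeptide 2, averaged 341 ± 21.3 CPM in LmnB1_16, 375 ± 31.9 in LmnB1_6, 280 ± 16.9 in mCherry_4 and 173 ± 12.5 in mCherry_3 (SD, n = 3 each). Its log2 fold change was 0.66 (SE 0.15, adjusted p = 0.0138, edgeR), it was called higher in all 4 clone contrasts, from 0.28 to 1.11, and mCherry_4 was above mCherry_3 by 0.69. SUN1, of the complex that ties the lamina to the cytoskeleton, was at -0.18 (SE 0.05, adjusted p = 0.0294), but it was not called over mCherry_4 in LmnB1_6 (adjusted p = 0.0616) or LmnB1_16 (adjusted p = 0.318). The median of the 10 was -0.00. None of 4 genes for lamin kinases and the lamin-cleaving caspase (CDK1, PRKCA, PRKCD and CASP6) was called by edgeR or DESeq2, and 1 had an unadjusted p under 0.05 in edgeR.

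The 10 mitotic genes set mCherry_3 apart. Between the constructs edgeR called none, where 17.8% of all genes were called, and the median log2 fold change was 0.54. An unadjusted p under 0.05 was found for 8 of the 10 and for 5276 of all 15388 genes. DESeq2 called 5, and its share of all genes is not given here. Over mCherry_3, all 10 were called higher in LmnB1_6 (median 1.14), LmnB1_16 (1.20) and mCherry_4 (1.05). Those contrasts called 26.0%, 22.5% and 19.9% of all genes higher. Over mCherry_4, 2 of 10 were called higher in LmnB1_6 (median 0.08), beside 17.1% of all genes, and 2 in LmnB1_16 (median 0.16), beside 6.67%. LMNA, LMNB1, LMNB2 and FNTB were likewise lowest in mCherry_3, and the part of the mitotic genes in these values was not tested.

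The genes most like each lamin were taken by the smallest root mean square difference of centred log2 CPM over the 12 libraries, among 11787 protein-coding genes. For LMNA these were GAS2L1 (0.08), SMS (0.08) and VASP (0.09), and for LMNB2 they were APEX1 (0.04), GINS1 (0.05) and DAZAP1 (0.05). For LMNB1 the nearest was farther off, at 0.40 for ZNF185, followed by BGN (0.53) and TNFSF12 (0.56). ZNF185, an actin-binding LIM protein, averaged 87.3 CPM in LmnB1_16, 125 in LmnB1_6, 2.88 in mCherry_4 and 1.89 in mCherry_3. BGN, the proteoglycan biglycan, averaged 63.0 CPM in LmnB1_16, 50.4 in LmnB1_6, 4.84 in mCherry_4 and 1.07 in mCherry_3, so its LmnB1 clones stood in the other order than for LMNB1. TNFSF12, a cytokine gene whose counts can mix with those of a readthrough gene, was at 1.81 CPM in LmnB1_16, 3.57 in LmnB1_6, 0.13 in mCherry_4 and 0 in mCherry_3.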

How the data were processed

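Per the labels' protocols, Trizol and a column kit were used to isolate RNA, and mRNA libraries were made and sequenced by a service provider. The submitters' processing notes name STAR, Salmon, DESeq2 and GRCh38 (hg38), without versions or settings, and the annotation release was not stated in the sources used here. Per the file headers, the authors deposited for each library and gene an estimated count, TPM, length and effective length. The deposited estimated counts carry no normalization, and 31.3% to 32.6% of those above 0 were not whole, so they were rounded for the count tests. In the deposited TPM each gene is divided by its effective length. The deposited lengths are bases, averaged over transcripts.

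Genes kept by filterByExpr (minimum count 10, minimum total 15, grouped by clone) took 99.9% or more of the counts in each library. After TMM scaling (factors 0.948 to 1.06), edgeR 4.0.16 (glmQLFit, glmQLFTest) was run in R 4.3.3, with Benjamini-Hochberg adjustment over all 15388 genes and a threshold of 0.05. 1 fit set 6 LmnB1 against 6 mCherry libraries (biological coefficient of variation 0.262), and the other had the 4 clones as groups (0.0842). Each standard error is the log2 fold change divided by the root of its F statistic. The p-values reflect only how far these libraries spread, which may be technical. Replicate numbers were not taken as pairs.

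Alternatives were RLE factors, DESeq2 1.42.0, no filter, an effective-length offset, a replicate block, limma 3.58.1 on log2(TPM + 1) and log2(TPM + 0.1), each library or clone left out, counts summed per clone, and a limma fit in which clone was a random effect. Genes named are the 8, the 3 most like each lamin (protein coding, mean of at least 1 CPM, log2 CPM with a prior count of 1), and, from each list, at most 4 called genes ranked by adjusted p. MITF, OTX2, PAX6, FDPS, CENPF and other markers or list members given with values were named outside that rule. Members, lists and comparisons were chosen with earlier results of these data known. Positions and sequences come from GENCODE 29, whose gene versions need not be those of the deposited tables. Some sequences and 1 marker are not reported here.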

Additional observations from a re-analysis of the deposited data

Results flagged for a closer look

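In 38 groups of 6 libraries (CPM or effective length of a gene, or a ratio or share, under 1 construct), 2 held a library far from the rest. Chance would flag about 1 in 20 groups if the 6 libraries were independent and alike. Each group joins 2 clones and the groups share genes, so that rate need not hold. ZMPSTE24 stood at 115 CPM in the second library of LmnB1_16, where the other 5 LmnB1 libraries lay between 92.7 and 97.8 CPM (gap over range 0.771). That library also had the lowest RCE1 value, 13.4 CPM, and the highest ICMT value of the LmnB1 libraries, 239 CPM. The effective length of RCE1 was 1088 bases in the third library of mCherry_4, the lowest of the mCherry libraries (0.722).

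Clones of the LmnB1 construct differed in 3 of the 8 genes by edgeR's test of LmnB1_16 over LmnB1_6, which called 34.4% of all genes. LMNA was lower in LmnB1_16 by a log2 fold change of -0.19 (adjusted p = 0.0232), LMNB1 was lower by -0.24 (adjusted p = 0.0117) and ICMT was higher by 0.24 (adjusted p = 0.00446).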

How the results depend on the processing

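LMNB1 was higher with the LmnB1 construct in all 25 alternatives, at log2 fold changes of 4.51 to 6.24. With counts summed per clone (2 clones against 2) it was 4.89 and no longer called (adjusted p = 0.778). It was the only 1 of the 8 genes called in the same direction in all 4 clone contrasts in all 19 alternatives. The LMNB1 length ratio stayed between 0.390 and 0.458. The ratio of LMNA to LMNB2 between the constructs was 0.700 to 0.790 under alternatives chosen after seeing the data. The LMNB1 share of lamin TPM was 70.8% by counts, and 85.4% to 85.9% with single libraries left out.

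Libraries with the same replicate number did not deviate together (18 pairs, r from -0.0578 to 0.166, 3 over 0.1). Of the 8 genes, the count called between the constructs was 1 under the replicate block (LMNB2 at adjusted p = 0.0636), with clone as a random effect, and without the clone LmnB1_6 or mCherry_3. It was 5 without mCherry_4 (LMNA, LMNB1, LMNB2, FNTA and FNTB), and 0 with counts summed per clone. Leaving out single libraries gave 1 to 3, with ZMPSTE24 added without LmnB1_16 replicate 2 and FNTB without mCherry_4 replicate 2 or 3. The shares of all genes called under these settings are not given beside these counts. For LmnB1_16 over LmnB1_6 the count was 1 under both limma settings on TPM and 1 to 4 with single libraries left out. It was 1 without LmnB1_6 replicate 2.

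LMNA, not called between the constructs, turned negative with the length offset (-0.0159), limma on log2(TPM + 1) (-0.0236) or log2(TPM + 0.1) (-0.0236), and without LmnB1_6 (-0.0492) or mCherry_3 (-0.24). It was 0.41 and called without mCherry_4. With single libraries left out it was -0.0309 to 0.141. RCE1, not called either, turned negative under limma on log2(TPM + 1) (-0.0158) and log2(TPM + 0.1) (-0.0168) and without LmnB1_6 (-0.0604) or mCherry_4 (-0.0200), and single libraries left out gave -0.0215 to 0.0899. The cause was not tested. With 2 clones per construct, a difference between constructs and one between clones cannot be told apart by these fits alone.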
